A study of Homo sapiens with 8 samples.

Results

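The genes described here are 300 human zinc-finger genes with a ZNF symbol, read in ribosome footprints of 293T cells. They were the symbols made of ZNF, a number and at most 1 further letter, leaving out ZNF354B and ZNF598, that had the most counts summed over 8 libraries. The files held 458 such symbols among 17179 gene symbols in all. The members were thus chosen by their summed counts, so their abundance is a description with no test: ZNF485, ZNF559 and ZNF619 were just inside with 604, 592 and 589 counts, and ZNF14, ZNF85 and ZNF521 just outside with 575, 574 and 572. All 300 members were detected in each library and all passed the filter on low counts, the smallest count of a member in any library being 23.

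In ribosome profiling, nuclease digests the mRNA that ribosomes do not cover and the covered pieces are sequenced, so a gene's count is its number of footprints. The 293T line was derived from human embryonic kidney and carries the SV40 large T antigen. The libraries formed 4 groups of 2: cells with a non-cleaving shRNA named shNBD1, cells with the control for shRNA (Scr), cells with miRNA inhibitors, and cells with the control for inhibitors (NC). The labels spell out neither NBD1 nor the miRNAs inhibited, and give no dose or time. Nor do they say whether replicates were separate cultures, so the spread behind each p-value may be technical. No matched RNA was used here, so mRNA level and translation cannot be told apart, and in bulk samples neither can fewer cells of a kind and less RNA per cell.

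Most ZNF genes encode C2H2 zinc-finger proteins, in which a tandem array of fingers reads DNA. A large share of them begins with a KRAB domain, which recruits TRIM28 (KAP1) and through it the histone methyltransferase SETDB1 and HP1 proteins, and many of these KRAB proteins silence transposable elements. KRAB zinc-finger genes arose by tandem duplication and lie in clusters, most of all on chromosome 19. Other ZNF proteins lack KRAB and act in transcription, splicing or the spindle. Reads that match several members are a concern in such a family, and how the authors treated them is not given in the sources used here.

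Promoter windows are shown for 3 members that fell with shNBD1 and 1 that rose, to let the differing base composition be seen beside the values given further on. They come from RefSeq on GRCh38.p14 and run 5′ to 3′ on the gene's strand over 300 bases, 250 before and 50 after the annotated start. Capitals mark the letters CCGGAAG, a form of the site that ETS factors bind. They also mark GGGCGG, known from the factor SP1, and the letters of the CCAAT box, each on either strand, a match on the other strand appearing as the reverse complement. The 4 genes were picked after their values were seen. ZNF460 is chr19:57279732-57280031 on the plus strand, ZNF551 is chr19:57681727-57682026 on the plus strand, ZNF772 is chr19:57477517-57477816 on the minus strand, and ZNF516 is chr18:76495193-76495492 on the minus strand.
ZNF460: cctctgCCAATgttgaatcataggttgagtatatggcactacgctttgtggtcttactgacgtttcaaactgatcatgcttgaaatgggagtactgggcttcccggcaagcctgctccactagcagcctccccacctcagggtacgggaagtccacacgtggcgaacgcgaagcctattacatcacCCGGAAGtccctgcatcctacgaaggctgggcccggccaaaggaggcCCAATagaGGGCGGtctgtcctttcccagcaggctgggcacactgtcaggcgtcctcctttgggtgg
ZNF551: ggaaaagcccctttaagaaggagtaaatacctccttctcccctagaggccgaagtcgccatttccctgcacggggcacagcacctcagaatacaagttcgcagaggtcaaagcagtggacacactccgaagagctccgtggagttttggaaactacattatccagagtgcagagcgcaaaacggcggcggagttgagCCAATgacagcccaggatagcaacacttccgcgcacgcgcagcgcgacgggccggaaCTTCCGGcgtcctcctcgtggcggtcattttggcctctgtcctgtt
ZNF772: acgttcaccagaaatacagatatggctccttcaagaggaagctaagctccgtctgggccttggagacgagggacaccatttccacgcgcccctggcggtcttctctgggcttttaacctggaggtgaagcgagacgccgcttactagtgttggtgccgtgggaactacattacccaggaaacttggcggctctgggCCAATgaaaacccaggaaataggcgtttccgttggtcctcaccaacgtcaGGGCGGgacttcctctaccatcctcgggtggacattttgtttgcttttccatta
ZNF516: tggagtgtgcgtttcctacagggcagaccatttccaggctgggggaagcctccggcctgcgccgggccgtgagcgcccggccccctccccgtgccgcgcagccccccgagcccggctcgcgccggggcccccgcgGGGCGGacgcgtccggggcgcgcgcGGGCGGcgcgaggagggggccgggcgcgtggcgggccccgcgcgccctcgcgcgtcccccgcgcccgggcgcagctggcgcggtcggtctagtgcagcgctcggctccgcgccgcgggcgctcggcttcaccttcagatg
The windows of ZNF460, ZNF551 and ZNF772 held 13, 22 and 16 CpG dinucleotides at a GC content of 57%, 57% and 54%. That of ZNF516 held 53 CpG at 81.7%, far above the median of 20 CpG for members that rose.

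Total counts per library lay between 11218980 and 19854218, and the members took between 0.495% and 0.590% of them. A member's mean level was between 4.82 and 352.5 CPM (counts scaled to a common library size), with a median of 11.0 CPM against 20.8 CPM over the 13306 genes tested. ZNF711 and ZNF207 held 11.8% of the members' counts. Among the markers of 293T cells, VIM was between 3069 and 6152 CPM and LIN28B between 6.82 and 19.2 CPM, while PAX2 and NEFM were at most 3.48 and 1.69 CPM and LHX1 had no count. Of 10 markers of other cell types, 7 to 9 had a count in a library, and PTPRC, ALB and CD3E were at 0 or at most 0.105 CPM. The 10 summed to 559 and 564 CPM with shNBD1 and 521 and 547 CPM in the shRNA control. In the other arm they summed to 581 and 588 CPM with the inhibitors and 674 and 656 CPM in the inhibitor control, mostly ACTA2, EPCAM, COL1A1 and CD68. CD68 was at 26.8 and 26.4 CPM with shNBD1 and 38.6 and 38.97 CPM in the shRNA control. COL1A1 was at 51.8 and 56.97 CPM with shNBD1 and 39.5 and 38.8 CPM in the shRNA control, and ACTA2 at 345 and 349 CPM with shNBD1 and 296 and 325 CPM in the shRNA control. Of the 293T markers, VIM was at 5859 and 6152 CPM with shNBD1 and 3601 and 3635 CPM in the shRNA control, and LIN28B at 15.7 and 15.1 CPM with shNBD1 and 6.82 and 8.04 CPM in the shRNA control. Their part in the members' values was not tested.

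The first comparison asked how footprints on ZNF genes differed with shNBD1. Their sum was lower: it was 5188 and 5140 CPM with shNBD1 (5164 ± 34.0, SD, n = 2) and 5799 and 5768 CPM in the shRNA control (5783 ± 21.6), a difference of -10.7%. Both shNBD1 libraries lay below both controls, by more than the gap within either pair. Of the 300 members, 58 fell and 8 rose (edgeR's quasi-likelihood test, Benjamini-Hochberg adjusted p under 0.05 over all genes). Together these were 22.0% of the members, beside 18.3% of all genes tested, but the directions differed: 9.15% of all genes fell and 9.18% rose. The members' median log2 fold change was -0.19, against 0.00 over all genes and 0.01 over the 6095 other genes of like abundance, of which 628 rose and 538 fell.

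The shift was one of many modest differences. Both shNBD1 libraries were below both controls for 169 members (56.3%), a pattern found in 34.3% of all genes, and above both for 59 members (19.7%), found in 34.7%. Only ZNF460 and ZNF772 differed by more than 2-fold among the 300 members. Split by mean level into tertiles of 100, the lowest had 15 that fell and 1 that rose, the middle 28 and 1, and the highest 15 and 6, with medians of -0.18, -0.26 and -0.14. Of other genes in these ranges 6.10%, 6.25% and 12.2% fell and 9.36%, 10.2% and 11.0% rose, with medians of 0.07, 0.02 and -0.01. In the highest tertile the members' share that fell, 15%, was thus near that of other genes. The 137 further ZNF symbols that ranked below the 300 and could be tested had 11 that fell, 1 that rose and a median of -0.27. Their share that fell, 8.03%, was near that of all genes. Without ZNF711 and ZNF207 the sum still differed by -9.74%.

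The number of calls depended on the libraries in the fit. With 1 of the 4 libraries left out, 7 members fell without shRNA control replicate 1, 13 without shRNA control replicate 2, 23 without shNBD1 replicate 1 and 11 without shNBD1 replicate 2, while the share of all genes called dropped to between 3.92% and 7.52%. The members' median stayed between -0.20 and -0.17 in these fits, and ZNF460, ZNF772, ZNF24, ZNF551, ZNF224 and ZNF569 kept their call in each of them. Of the 58, 31 lost it in all 4.

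ZNF460, a KRAB zinc-finger gene at chromosome 19, 57279982 to 57294069 (GRCh38.p14), had the smallest p. It was at 43.6 and 41.1 CPM with shNBD1 and at 104 and 95.7 CPM in the shRNA control, and at 86.7 and 84.3 CPM with the inhibitors and 97.3 and 93.5 CPM in the inhibitor control. Both shNBD1 libraries were thus below the other 6. The log2 fold change with shNBD1 was -1.24 ± 0.08 (SE, adjusted p = 2.0e-05).

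ZNF772 and ZNF551, KRAB genes that lie close to ZNF460 at 57469586 to 57477566 and 57681977 to 57690648, fell as well. ZNF772 was at 6.04 and 5.92 CPM with shNBD1, against 14.3 and 13.2 CPM in the shRNA control, which is -1.20 ± 0.14 on the log2 scale (adjusted p = 0.000437). ZNF551 was at 9.32 and 10.1 CPM with shNBD1, against 17.5 and 17.2 CPM in its control, or -0.83 ± 0.11 (adjusted p = 0.00112). In the inhibitor arm all 4 libraries of both genes were above the shNBD1 values, ZNF772 between 9.93 and 11.6 CPM and ZNF551 between 13.4 and 16.8 CPM.

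ZNF24, on chromosome 18, encodes a SCAN-domain zinc-finger protein known as a repressor of VEGFA transcription. It fell by 0.57 ± 0.08 on the log2 scale, with 44.7 and 40.8 CPM under shNBD1 and 62.7 and 63.8 CPM in the shRNA control (adjusted p = 0.00109). ZNF224, the KRAB protein first described as a repressor of the aldolase A gene, was at 8.96 and 9.32 CPM with shNBD1 and 18.7 and 15.4 CPM in the shRNA control, or -0.90 ± 0.13 (adjusted p = 0.00153). Neither gene's groups overlapped, although the shRNA control libraries of ZNF224 stood further apart than those of ZNF24.

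ZNF569 and ZNF420 are KRAB genes of another stretch of chromosome 19, and ZNF420 (APAK) is known to bind p53 and restrain it. ZNF569 was at 8.11 and 8.98 CPM with shNBD1 and 15.5 and 18.7 CPM in the shRNA control (log2 fold change -0.99 ± 0.14, adjusted p = 0.00154). ZNF420 was at 11.3 and 13.1 CPM with shNBD1 and 22.9 and 20.1 CPM in the shRNA control (-0.82 ± 0.14, adjusted p = 0.0029). For both, the inhibitor control was near the shNBD1 values and not near the shRNA control: it was at 11.0 and 9.29 CPM for ZNF569 and 13.6 and 11.2 CPM for ZNF420. ZNF615 completed the 8 of smallest p, at 7.18 and 6.33 CPM with shNBD1 and 11.8 and 11.4 CPM in the shRNA control (-0.78 ± 0.14, adjusted p = 0.00376).

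**Figure D1:**
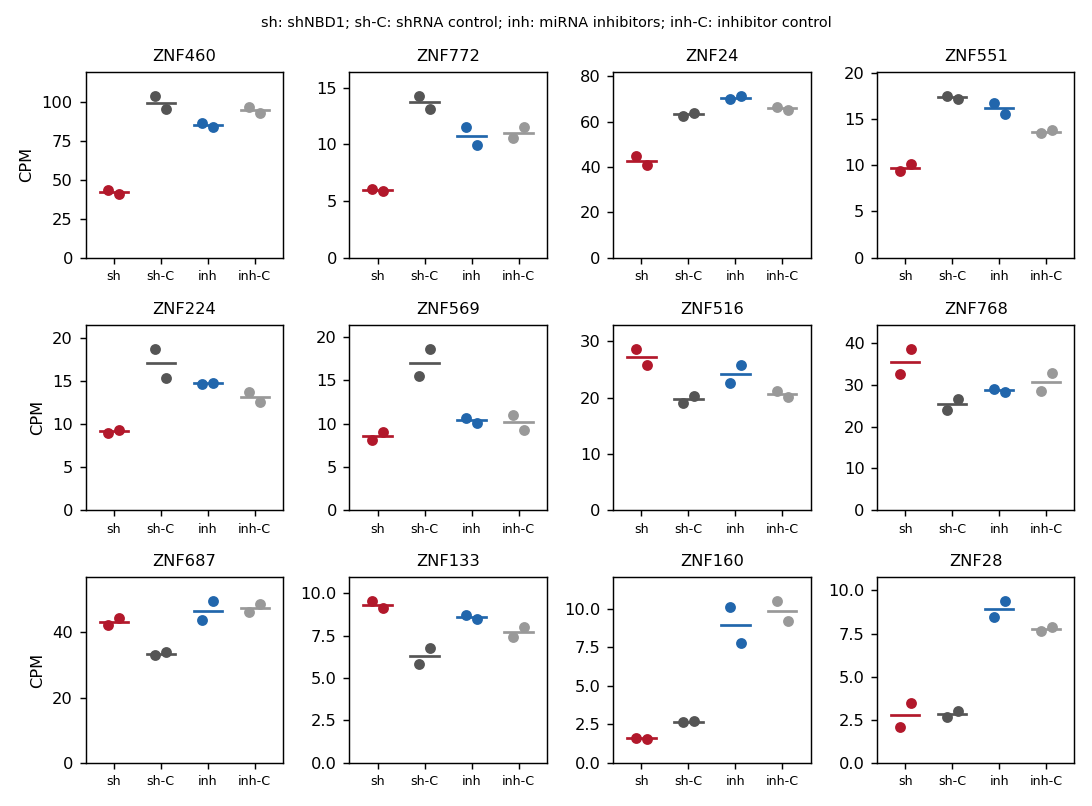
CPM of named members in each library of the 4 groups (points) and the group means (lines), with each treatment left of its control; each panel has its own axis from 0, and levels are not compared between genes. For ZNF460 both shNBD1 libraries, at 43.6 and 41.1 CPM, lie below the other 6.

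The 8 members that rose did so by less, with log2 fold changes between 0.31 and 0.57. ZNF516, a transcription factor known to activate UCP1 in mouse brown fat, was at 28.7 and 25.7 CPM with shNBD1 and 19.1 and 20.3 CPM in the shRNA control (0.47 ± 0.11, adjusted p = 0.0150). ZNF687 and ZNF592, which bind the chromatin reader ZMYND8, both rose: ZNF687 was at 42.1 and 44.2 CPM with shNBD1 and 33.0 and 33.9 CPM in the shRNA control, and ZNF592 at 52.7 and 52.3 CPM with shNBD1 and 42.8 and 41.6 CPM in the shRNA control. The others were ZNF768 (0.49), ZNF133 (0.57), ZNF629 (0.46), ZNF710 (0.56) and ZNF574 (0.40). None of the 8 kept its call in all 4 fits with 1 library left out, and 7 lost it in all 4. For 3 of the 8 both shNBD1 libraries were above the other 6, a pattern held by 19 of the 300 members and 14.5% of all genes. For 1 of the 8 the shNBD1 mean was below the inhibitor control mean. ZNF687 was also called lower in the shRNA control than in the inhibitor control, at a log2 fold change of -0.50. A low shRNA control and a high shNBD1 value cannot be told apart for it.

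The members that fell lay mainly on chromosome 19. Of the 142 members there, 47 fell and 1, ZNF574, rose, with a median log2 fold change of -0.33; of the 158 on other chromosomes, 11 fell and 7 rose, with a median of -0.03. Chromosome 19 thus held 81.0% of the members that fell and 47.3% of all members, beside 7.40% of the placed genes tested. The share that fell was 33.1% on chromosome 19 and 6.96% elsewhere, beside 9.15% of all genes tested, of which 9.18% rose. Both shNBD1 libraries were below both controls for 111 of the 142 (78.2%), a pattern found in 34.3% of all genes. Of the 802 other tested genes of chromosome 19, 93 rose and 39 fell, with a median of 0.12. The difference between the chromosomes was chosen after the values were seen and was given no test.

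The summed level shows the same split. Members on chromosome 19 summed to 1720 and 1708 CPM with shNBD1 (1714 ± 7.83, SD, n = 2) and 2130.2 and 2109 CPM in the shRNA control (2119 ± 15.2), a difference of -19.1%. Members on other chromosomes summed to 3469 and 3432 CPM with shNBD1 and 3669 and 3659.5 CPM in the shRNA control, a difference of -5.84%. In both sets the shNBD1 libraries were below the controls, but the gap was wider on chromosome 19. Without ZNF711 alone, the members on other chromosomes summed to 3124 and 3103 CPM with shNBD1 and 3198 and 3189 CPM in the shRNA control, a difference of -2.51%.

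**Figure D2:**
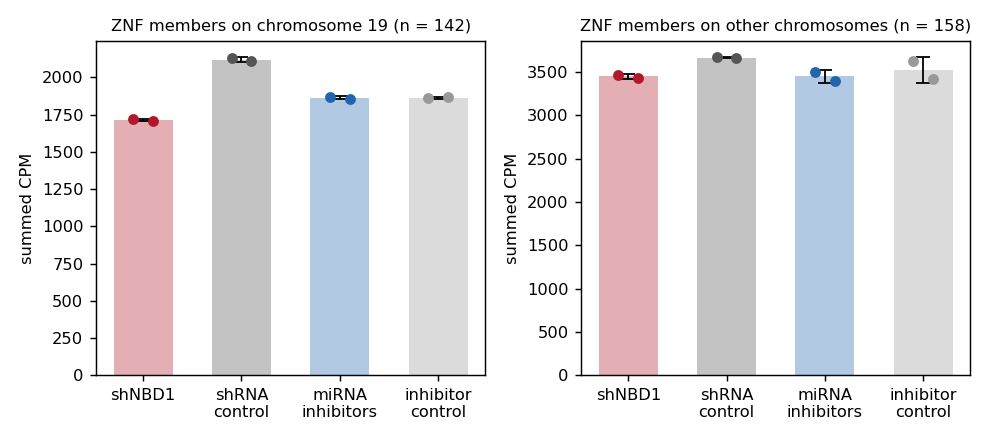
Summed CPM per library (points) with the mean (bars from 0) and SD (error bars, n = 2) for the 142 members on chromosome 19 and the 158 on other chromosomes, in the 4 groups. On chromosome 19 the shNBD1 libraries, at 1720 and 1708 CPM, are the lowest and the shRNA control the highest.

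Along chromosome 19, runs of at least 8 members with gaps under 500000 bases were taken as clusters, which gave 5 runs with 99 members. In the run from ZNF146 to ZNF573 (36214723 to 37779586) 12 of 23 members fell (52.2%, beside 9.15% of all genes), with a median of -0.48. From ZNF576 to ZNF180 (43596392 to 44500522) 7 of 14 fell (50%), with a median of -0.47. From ZNF175 to ZNF331 (51571283 to 53580269) 7 of 18 fell (38.9%), with a median of -0.46. The run from ZNF264 to ZNF446 (57191500 to 58489533), which holds ZNF460, ZNF772 and ZNF551, had 12 of 35 that fell (34.3%) and a median of -0.33. The run from ZNF628 to ZNF71 (55476617 to 56624486) differed, with 1 of 9 that fell (11.1%, near the share of all genes) and a median of 0.23. No member of the 5 runs rose, beside 9.18% of all genes.

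**Figure D3:**
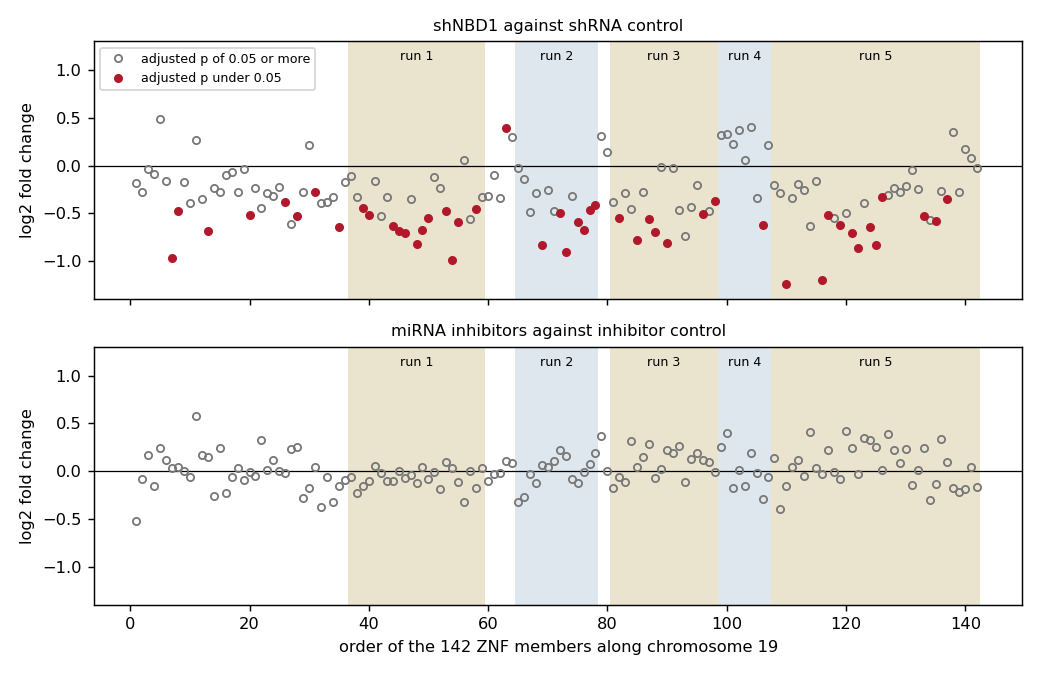
Log2 fold change of the 142 members in their order along chromosome 19, for shNBD1 against the shRNA control (top) and the miRNA inhibitors against the inhibitor control (bottom); filled points passed an adjusted p of 0.05 and shading marks the 5 runs. In the top panel 47 filled points lie below 0 and 1 above, and in the bottom panel no point is filled.

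By known role, members that bind transposable elements or imprinted regions gave 4 that fell and 0 that rose of 15 measured here, 26.7% beside 9.15% of all genes, with a median of -0.25. Each of the 4 lost its call in all 4 fits with 1 library left out. ZNF649, which binds LINE-1 elements, was at 5.26 and 6.40 CPM with shNBD1 and 8.90 and 8.10 CPM in the shRNA control (-0.55 ± 0.15, adjusted p = 0.0316). ZNF331, an imprinted KRAB gene, was at 15.8 and 15.5 CPM with shNBD1 and 19.8 and 20.8 CPM in the shRNA control (-0.38 ± 0.11, adjusted p = 0.0361). ZNF268 and ZNF765 fell by 0.46 and 0.50 on the log2 scale. ZNF445, which maintains methylation at imprinted regions, was at 21.5 and 20.8 CPM with shNBD1 and 19.7 and 19.8 CPM in the shRNA control, which did not pass the test.

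Of 24 members known for roles outside the KRAB family, 3 rose (ZNF516, ZNF687 and ZNF592) and 1 fell, with a median of 0.00. That is 16.7% called, near the 18.3% of all genes, and each of the 4 lost its call in all 4 fits with 1 library left out. The one that fell was ZNF326, a subunit of the DBIRD complex that couples splicing to transcript elongation, at 66.2 and 64.1 CPM with shNBD1 and 82.4 and 79.2 CPM in the shRNA control (-0.31 ± 0.07, adjusted p = 0.0122). ZNF207 (BuGZ), which loads BUB3 at kinetochores, was at 262 and 252 CPM with shNBD1 and 249 and 250.1 CPM in the shRNA control, and its adjusted p was 0.713. ZNF711, an X-linked partner of the demethylase PHF8 and the member with the most counts, was at 345 and 329 CPM with shNBD1 and 471 and 470.1 CPM in the shRNA control. Its groups did not overlap, yet at a log2 fold change of -0.48 ± 0.15 it missed the threshold (adjusted p = 0.0515).

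Of 20 genes for partners of KRAB proteins and heterochromatin, 2 rose and 3 fell, with a median of -0.11. Among all genes 9.18% rose and 9.15% fell, so that a list of this length at the background would hold a like number of calls. TRIM28 was at 1844 and 2031 CPM with shNBD1 and 1828 and 1832 CPM in the shRNA control, and SETDB1 at 84.0 and 80.2 CPM with shNBD1 and 79.7 and 80.1 CPM in the shRNA control. Neither passed the test. Those that fell were ATF7IP, the partner that stabilises SETDB1 (-0.49 ± 0.08, adjusted p = 0.00362), CBX3, which is HP1 gamma (-0.44 ± 0.08, adjusted p = 0.00527), and RESF1 (-0.38 ± 0.12, adjusted p = 0.0497). DAXX, a histone H3.3 chaperone, was at 111 and 110.0 CPM with shNBD1 and 83.3 and 78.1 CPM in the shRNA control, and rose by 0.45 ± 0.08 (adjusted p = 0.00333).

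Other C2H2 families were grouped by symbol, and their difference from the members was not tested. Of 18 ZFP symbols 3 fell and 0 rose (ZFP14 by 0.75, ZFP28 by 0.67 and ZFP82 by 0.87 on the log2 scale), of 17 ZSCAN symbols 2 fell and 1 rose, of 7 ZKSCAN symbols none passed, and of 38 ZBTB symbols 6 rose and 3 fell. The share called was 16.7% for ZFP, 17.6% for ZSCAN, 23.7% for ZBTB and 30.8% for KLF symbols, beside 18.3% of all genes. The 13 KLF symbols, Kruppel-like activators and repressors, had 4 that rose and 0 that fell, with a median of 0.36. KLF6 was at 35.7 and 34.1 CPM with shNBD1 and 19.3 and 18.5 CPM in the shRNA control (0.88 ± 0.10 on the log2 scale, adjusted p = 0.000437).

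**Figure D4:**
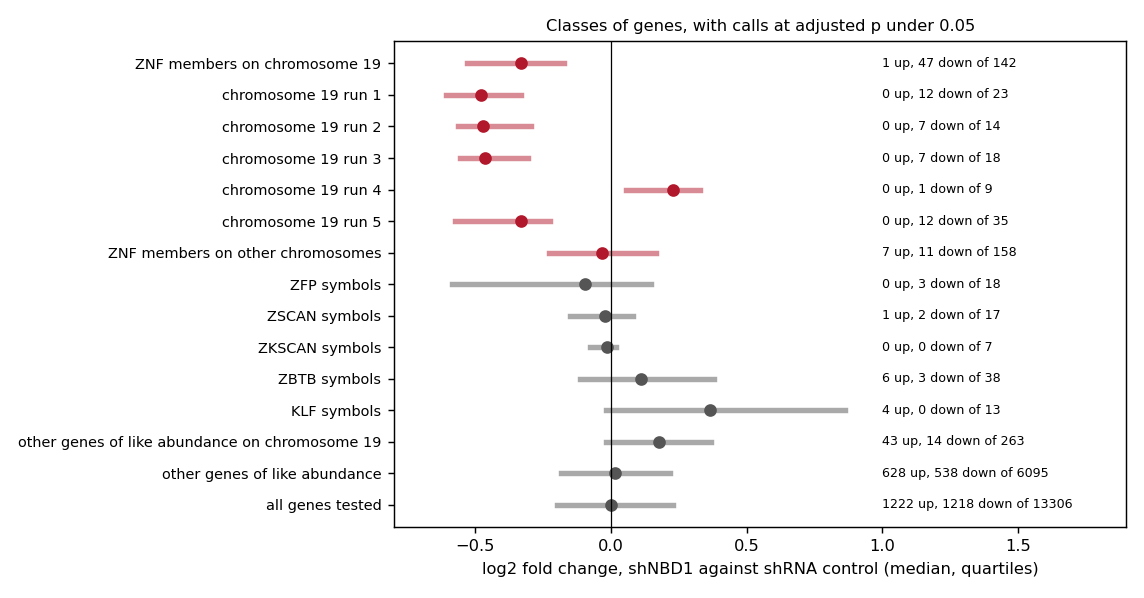
Median (point) and quartiles (bar) of the log2 fold change with shNBD1 against the shRNA control, for ZNF members by place, other C2H2 families and comparison sets; the text beside each row gives the genes called higher (up) and lower (down). The medians of runs 1, 2 and 3 lie between -0.48 and -0.46, and that of other chromosome 19 genes of like abundance is above 0.

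The second comparison asked the same of the miRNA inhibitors. No member passed the test in either direction, beside 0.12% of all genes (0.0376% higher and 0.0827% lower, edgeR's quasi-likelihood test), and 0 passed by DESeq2. Neither fit took replicate numbers as pairs. With these numbers as a block in edgeR, 4 members were higher and 3 lower, while 5.07% of all genes were called. At an unadjusted p under 0.05 there were 13 higher and 14 lower, 27 of the 300 members, while 16.4% of all genes reached it. The median log2 fold change was -0.00, and both inhibitor libraries were above both controls for 61 members (20.3%, beside 20.5% of all genes) and below both for 60 (20.0%, beside 20.3%). The members' sum was 5377 and 5253 CPM with the inhibitors and 5484 and 5286 CPM in the inhibitor control, so the groups overlapped.

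Chromosome 19 members did not stand apart in this arm, with 1871 and 1858 CPM with the inhibitors and 1858 and 1866 CPM in the inhibitor control. The member of smallest p above its control was ZNF367, at 18.0 and 24.2 CPM with the inhibitors and 12.8 and 14.9 CPM in the inhibitor control (log2 fold change 0.59 ± 0.15, adjusted p = 0.134). The one of smallest p below it was ZNF695, at 6.25 and 5.96 CPM with the inhibitors and 8.997 and 8.58 CPM in the inhibitor control (-0.52 ± 0.14, adjusted p = 0.137). ZNF711 was at 295 and 210.5 CPM with the inhibitors and 402 and 298 CPM in the inhibitor control, so that each inhibitor library was below the lower control although the 2 libraries of a group were further apart than in the shRNA arm (adjusted p = 0.188). In both groups of this arm its replicate 2 was the lower library. Replicates varied more here: the median SD of a member's log2 CPM was 0.127 with the inhibitors and 0.108 in their control, against 0.0849 with shNBD1 and 0.0718 in the shRNA control. With inhibitor control replicate 2 left out, 5 members were called higher and 6 lower, while 4.72% of all genes were called. Without inhibitor replicate 1, 4 were higher and 1 lower, while 6.86% of all genes were called.

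The effects of the treatments were then set against each other in the same fit. The difference, shNBD1 effect minus inhibitor effect, was negative for 20 members and positive for 1 at an adjusted p under 0.05, beside 7.44% of all genes (3.96% lower and 3.48% higher), and its median was -0.19. Of the 20, 16 lay on chromosome 19. ZNF367 had the most negative named difference: it fell by 0.76 on the log2 scale with shNBD1, at 6.76 and 7.89 CPM against 13.2 and 11.6 CPM in the shRNA control, while with the inhibitors it did not pass. The difference was -1.36 ± 0.24 (adjusted p = 0.0087). For ZNF460 it was -1.08 ± 0.11 (adjusted p = 0.000495) and for ZNF551 -1.08 ± 0.16 (adjusted p = 0.00343), and these were the 2 that kept the call in every alternative fit.

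ZNF609, which associates with the Integrator complex and cohesin loading, had the positive difference. It was at 28.7 and 25.4 CPM with shNBD1 and 23.8 and 23.2 CPM in the shRNA control, and at 25.7 and 24.1 CPM with the inhibitors and 34.4 and 30.3 CPM in the inhibitor control. Neither effect passed by itself, and the difference was 0.58 ± 0.15 (adjusted p = 0.043). The number of negative calls depended on the libraries in the fit, as did the share of all genes called. With 1 library left out, the members' median difference stayed between -0.21 and -0.13.

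**Figure D5:**
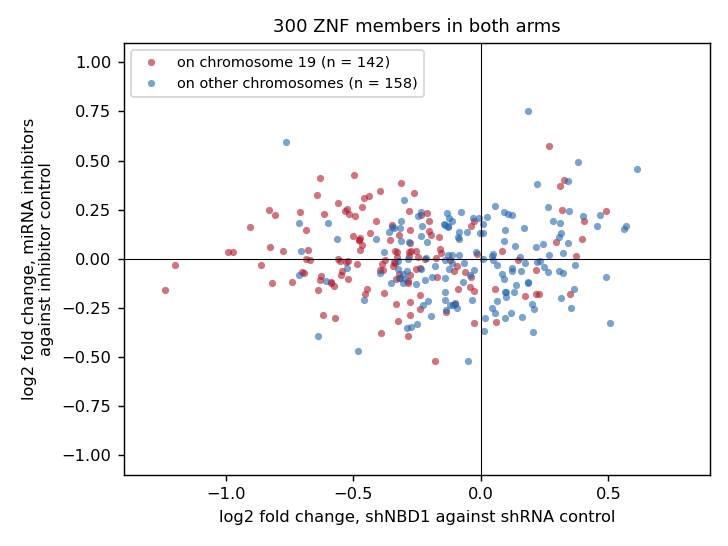
Log2 fold change of each of the 300 members with shNBD1 against the shRNA control (horizontal) and with the miRNA inhibitors against the inhibitor control (vertical), coloured by chromosome. Chromosome 19 members lie mostly left of 0 on the horizontal axis (median -0.33), while on the vertical axis points spread to both sides of 0.

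Across the 300 members the effects in the arms, which share no library, had a Pearson r of 0.03 and a Spearman rho of -0.01, against 0.15 and 0.13 over all genes. These are correlations across genes, which are not independent replicates.

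The controls themselves differed on these genes, and the first comparison shares the shRNA control. Of the members, 54 were higher and 19 lower in the shRNA control than in the inhibitor control, together 24.3% beside 27.1% of all genes (13.5% higher and 13.6% lower), with a median of 0.09. On chromosome 19, 42 were higher and 8 lower, with a median of 0.26, and on other chromosomes 12 and 11, with a median of -0.01. Of the 263 other genes of like abundance on chromosome 19, 40 were higher and 16 lower. Their median was 0.13, against 0.01 over all other genes of like abundance. Both shRNA control libraries were above both inhibitor controls for 135 members (45.0%, beside 33.7% of all genes) and below both for 62 (20.7%, beside 33.4%). The 137 ZNF symbols ranked below the 300 had 2 higher and 17 lower, with a median of -0.17. The sum of chromosome 19 members was 2130.2 and 2109 CPM in the shRNA control and 1858 and 1866 CPM in the inhibitor control, a difference of 13.8%. With shNBD1 it was 1720 and 1708 CPM, so the shNBD1 libraries were below the inhibitor control too.

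The members that fell with shNBD1 can be set beside the libraries that did not enter that contrast. For 35 of the 58 both shNBD1 libraries were below all 6 others, a pattern held by 74 of the 300 members and 13.7% of all genes. For 53 the shNBD1 mean was below the inhibitor control mean, as it was for 186 of the 300 members. The share of all genes with this second pattern was not computed. Of the 58, 28 were also called higher in the shRNA control than in the inhibitor control and 0 lower, beside 13.5% and 13.6% of all genes. Their median log2 fold change between the controls was 0.35, against 0.09 for all members. The 58 were chosen for shNBD1 values that were low against the shRNA control, so these counts are a description. With the inhibitors they had a median log2 fold change of 0.02, with 28 below 0. Because the comparisons share a control, a high shRNA control and a low shNBD1 value cannot be told apart for members whose shNBD1 libraries were near the inhibitor arm, as for ZNF569 and ZNF420.

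Among single members, ZNF544 was at 24.4 and 27.0 CPM in the shRNA control and 13.7 and 14.3 CPM in the inhibitor control (0.88 ± 0.10, adjusted p = 0.000312), with 20.9 and 19.3 CPM under shNBD1. ZNF330, a nucleolar protein gene, was higher by 0.66 and ZNF420 by 0.80. In the other direction ZNF160, a KRAB gene, was at 2.66 and 2.70 CPM in the shRNA control and 10.5 and 9.19 CPM in the inhibitor control (-1.87 ± 0.19, adjusted p = 0.000144). ZNF91, the KRAB protein that silences SVA elements, was at 2.79 and 3.44 CPM in the shRNA control and 7.87 and 7.61 CPM in the inhibitor control (-1.32 ± 0.18, adjusted p = 0.00076). ZNF28 (-1.45) and ZNF468 (-0.85) also differed. ZNF28, ZNF468 and ZNF160 lie in the run from ZNF175 to ZNF331. The shNBD1 libraries were low for all 4 genes as well: shNBD1 gave 1.64 and 1.57 CPM for ZNF160 and 1.78 and 2.25 CPM for ZNF91, against 10.1 and 7.75 CPM and 8.44 and 9.83 CPM with the inhibitors.

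The control calls also changed with the libraries in the fit. With 1 library left out fewer members were called, and fewer of all genes too, while the members' median stayed between 0.09 and 0.11. Markers differed between the controls too. CD68 was at 38.6 and 38.97 CPM in the shRNA control and 11.97 and 14.9 CPM in the inhibitor control, and EPCAM at 143 and 139 CPM in the shRNA control and 87.4 and 98.97 CPM in the inhibitor control. ACTA2 was at 296 and 325 CPM in the shRNA control and 546 and 495 CPM in the inhibitor control. Their part in the members' values was not tested. The labels do not say whether the arms were made at the same time, so a batch and the arm cannot be told apart.

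The promoter windows shown above can be set beside the calls. RefSeq gave a window for 260 of the 300 members. CCGGAAG, on either strand, stood in 46.9% of them (51.6% on chromosome 19 and 42.4% elsewhere), in 18.6% of the windows of genes tested and in 10.7% of all 27305. It stood in 51.9% of members that fell with shNBD1, 14.3% of the 7 that rose with a window, and 46.8% of those not called. Among other genes it stood in 21.5% of those that fell and 9.30% of those that rose. Members that fell had a median GC content of 59.3%, against 68.0% for members that rose. Their median CpG counts were 21.5 and 20, so the gap in CpG between the windows shown was not found between these sets. Other genes had 63.7% where they fell and 68.0% where they rose.

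Other motifs were searched in the same way. The CCAAT box stood in 46.9% of member windows and 37.0% of those of genes tested. The SP1 letters stood in 60.8% of member windows, in 26 of the 52 windows of members that fell, and in 70.4% of those of genes tested. The letters ACTACAA, part of the ZNF143 motif, were in 6.54% of member windows and 3.69% of those of genes tested. For the NRF1 motif, searched as GCATGCGC, the shares were 6.54% and 5.30%, and for YY1, searched with the letters AAGATGG, they were 8.08% and 7.09%. A TATA box, read as the letters TATAAA, was in 3.08% of member windows and 5.98% of those of genes tested, and the cAMP response element TGACGTCA in 3.46% and 3.26%. A match only says that these letters are in the window.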

How the data were processed

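Ribosome footprints of 8 libraries of 293T cells were analysed. The values deposited by the authors are raw counts of mapped reads per feature, with no header and no normalization. Cutadapt, Bowtie and the GRCh38 build are named per the submitters' processing notes. Not given in the sources used here are their versions, the counting tool, strand handling and the fate of reads with several matches. The files held 0 other columns of per-sample values.

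The 18037 features were summed to 17179 symbols (2 members had several features) and all symbols were fitted together in R 4.3.3 with edgeR 4.0.16 (limma 3.58.1): filterByExpr (minimum count 10, minimum total 15), TMM scaling, and the quasi-likelihood test on 4 group means over all 8 libraries, with no block. Benjamini-Hochberg adjustment covered all 13306 genes tested, and a gene was called at an adjusted p under 0.05. CPM uses TMM-scaled library sizes, except that the CPM of the cell type markers and their sums use each library's total counts without TMM. Fold changes carry the SE implied by the test. Other genes of like abundance have a mean CPM between the members' 5th and 95th percentiles (5.53 and 49.8). Each treatment was set against its own control, then their effects against each other, and last the 2 controls.

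The members, the lists of roles and the classes were chosen with earlier results of these data known, so lists are described by counts and medians without a test. Named members were those called, with groups that did not overlap and 50 or more counts on average where higher, up to 8 of smallest p per direction for shNBD1 and 6 otherwise, with values added where few were called; added to these were the members with most counts and up to 4 per list. The statement on chromosome 19, the runs and their alternatives were chosen after the values were seen. Coordinates and promoters are those of RefSeq (GRCh38.p14) matched by symbol, which placed all 300 members. The values of 1 gene of a list are not reported here. The steps were tested on simulated counts. Alternatives were DESeq2 1.42.0, upper-quartile scaling, other filters, leaving out features that hold many counts, the 4 libraries alone, a replicate block and each library left out. The depth limits precision, and amplified reads are not independent molecules. Errors cover the spread between libraries only.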

Additional observations from a re-analysis of the deposited data

Results flagged for a closer look

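Of the 21 members that passed the test of the difference, 8 were named by the rule for named members. For these 8 the effect of shNBD1 differed from the effect of the miRNA inhibitors by the test of the difference itself in the common fit (edgeR's quasi-likelihood test with Benjamini-Hochberg adjustment). The difference, on the log2 scale, was 0.58 for ZNF609, the 1 member with a positive value. It was -1.08 for ZNF460, -1.08 for ZNF551, -0.66 for ZNF24, -1.17 for ZNF772, -1.07 for ZNF224, -1.36 for ZNF367 and -0.40 for ZNF326. The estimates in the arms had opposite signs for ZNF609, ZNF551, ZNF24, ZNF224, ZNF367 and ZNF326, while for ZNF460 and ZNF772 both were below 0.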

How the results depend on the processing

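The median for the inhibitors, which lay at -0.00, was 0.018 without inhibitor control replicate 1 and so crossed 0. No called gene or other median changed direction under an alternative. For shNBD1 against the shRNA control, the 8 higher and 58 lower members became 28 and 103 with only the 4 libraries of the comparison (41.9% of all genes called, beside 18.3%) and 5 and 29 with DESeq2 (12.8%), and with 1 library left out they ranged from 0 to 2 and from 7 to 23. The median stayed at -0.20 to -0.17 with a library left out. On chromosome 19, chosen after seeing the data, 1 higher and 47 lower became 6 and 75 with the 4 libraries alone, 20 lower with DESeq2, and 0 higher and from 5 to 19 lower with a library left out, at a median from -0.36 to -0.33. For the inhibitors the 0 calls ranged from 0 to 5 higher and 0 to 6 lower with a library left out, at a median from -0.033 to 0.018. For the difference, the 1 higher member became 3 without a filter on low counts (6.58% of all genes called), 0 with DESeq2 and 2 over all tested ZNF symbols. The 20 lower became 7 with DESeq2. With a library left out the calls moved, as did the share of all genes called, at a median from -0.21 to -0.13. For the controls, the 54 higher and 19 lower became 24 and 10 with DESeq2, 7 to 45 and 5 to 18 with a library left out, and the lower 36 over all tested ZNF symbols. Their median of 0.09 was 0.047 with upper-quartile scaling, 0.038 over all tested ZNF symbols and 0.09 to 0.11 with a library left out. On chromosome 19 the 42 higher and 8 lower became 16 and 5 with DESeq2, and 6 to 32 and 3 to 7 with a library left out. Their median of 0.26 was 0.22 with upper-quartile scaling, 0.24 where genes averaged 50 counts or more and 0.23 to 0.25 with a library left out. Fewer libraries and, in the 4-library fits, another estimate of the spread enter these alternatives by construction; for the others the cause was not tested.

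Replicate numbers are shared between groups, but nothing in the labels says that they mark a batch. The main fit therefore did not take them as pairs. With 2 pairs per arm, the correlation of deviations over the genes tested was 0.0138 in the shRNA arm and 0.380 in the inhibitor arm. In the inhibitor arm same-numbered libraries thus deviated together in part, which the main fit leaves in the spread. With the replicate block, 10 members were higher and 80 lower with shNBD1 (25.6% of all genes called). With the inhibitors 4 were higher and 3 lower (5.07% of all genes). For the difference 4 were higher and 42 lower (14.04% of all genes), and between the controls 74 were higher and 24 lower (36.14% of all genes). In the main fit these shares of all genes were 18.3%, 0.12%, 7.44% and 27.1%, so they rose with the block as well.

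Among the named members' repeated results, 226 stayed on their side of the threshold for shNBD1, 62 lost the call and 9 gained it. For the inhibitors 214 stayed and 17 gained it, for the difference 247, 23 and 10, and for the controls 235, 21 and 8. A looser pattern for counting fingers was not run because protein sequences were not used here.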
